A study of Mus musculus with 4 samples.

Results

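DNA replication and S-phase genes were followed on 4 arrays of PDVC57, a mouse keratinocyte line that has been transformed. The genes were taken from a list of 43 symbols that cover the replicative helicase, origin licensing, the polymerases, the clamp and its loader, fork maturation, nucleotide supply, chromatin copying and S-phase entry. Of these, 41 had a probe set paired with that symbol alone, out of 22180 genes with such a probe set on the array, and for each gene the brightest probe set was kept. Rfc4 was paired only jointly with Eif4a2, and Ccne2 only jointly with Ints8, so neither was analysed here. Orc1, the largest subunit of the origin recognition complex, stood at the floor of 20 that the deposited intensities have, on all 4 arrays, and has no ratio. The other 40 genes lay above the floor on every array, as did 7717 genes in all, and each of the 4 arrays therefore gave a measured value for each of them.

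Cells in DMEM-F12 with little serum (0.1% FBS) were stimulated with mouse recombinant oncostatin M (OSM) at 10 ng/ml for 24 h or 6 h, or were left non stimulated (NS) for 24 h or 6 h. OSM is a cytokine of the IL-6 family. The 4 conditions were thus OSM 24 h, NS 24 h, OSM 6 h and NS 6 h, with 1 array each and a single cell line, so no ratio between arrays has a replicate check. The following contrasts were read: OSM over NS at 6 h and at 24 h, which are the comparisons of the series' own design, and 24 h over 6 h within OSM and within NS, which describe time in culture. The identity of the cells was checked on marker genes. The keratinocyte list also held general epithelial genes such as Krt8, Krt18, Cdh1 and Epcam, so it marks epithelial cells rather than keratinocytes alone. Its other matched genes were Krt14, Trp63, Sfn, Itga6, Itgb4, Lamb3, Perp, Dsp and Jup. All 13 markers of this list that had a probe set lay above the floor on every array (Krt5 was not matched). Their summed intensities were 4883 in OSM 24 h, 4509.7 in NS 24 h, 4470.1 in OSM 6 h and 4266 in NS 6 h. Krt14, a basal keratin and the marker past 1.5-fold, was 338 in OSM and 272.5 in NS at 24 h, and 342.5 in OSM and 218 in NS at 6 h (log2 ratios of OSM over NS of 0.31 and 0.65). The other ends of the marker list with OSM were Itga6 (0.38) and Epcam (-0.17) at 24 h and Perp (-0.17) at 6 h, and over time they were Lamb3 (0.32) and Trp63 (-0.046) in OSM and Sfn (0.47) and Itga6 (-0.070) in NS. By contrast, all 8 fibroblast markers, all 7 matched immune cell markers and all 8 endothelial and melanocyte markers stood at the floor on all 4 arrays.

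DNA replication begins when the origin recognition complex, with CDC6 and CDT1, loads the MCM helicase onto DNA in G1. In S phase CDC45 and the GINS complex join MCM to form the active helicase, primase and the polymerases copy the strands, and the PCNA clamp, loaded by RFC, holds the polymerases in place. Many of these genes are transcribed together at the G1/S border under E2F transcription factors, and their mRNA levels are widely used as a sign of proliferation.

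Because E2F sites are the best known shared element of this group, RefSeq promoters (GRCm38.p6, 250 bases before to 50 bases after a start site) were searched on both strands for 4 forms of the site, TTTCCCGC, TTTGGCGC, TTTCGCGC and TTTGCCGC, which can overlap each other. The table held promoters of 35 of the 43 listed genes. Rfc2, Gins1, Gins2, Gins4, Mcm4, Pole, Prim2 and Ccne2 had no entry. At least 1 form was found for 13 of the 35 genes (13 of their 40 promoters, 32.5%), against 744 of all 32851 promoters (2.26%). CCAAT, the box bound by NF-Y, was found in 23 of the 40 promoters (57.5%), against 37.4% of all promoters. The 250 bases upstream of the start are given below for 5 genes, picked after their values were seen: Mcm5, Cdc6 and Mcm10, which were lower on both arrays at 24 h, Mcm6, which holds the most matches, and Tyms, which had the widest range over the arrays. Capitals mark the E2F forms, on either strand. Mcm5 (chr8:75109259-75109508, plus strand) holds an overlapping pair, Mcm6 (chr1:128359706-128359955, minus strand) an overlapping pair and a single site, and Cdc6 (chr11:98907901-98908150, plus strand) a single site. Mcm10 (chr2:5012792-5013041, minus strand) and Tyms (chr5:30073626-30073875, minus strand) hold none in this window.
Mcm5: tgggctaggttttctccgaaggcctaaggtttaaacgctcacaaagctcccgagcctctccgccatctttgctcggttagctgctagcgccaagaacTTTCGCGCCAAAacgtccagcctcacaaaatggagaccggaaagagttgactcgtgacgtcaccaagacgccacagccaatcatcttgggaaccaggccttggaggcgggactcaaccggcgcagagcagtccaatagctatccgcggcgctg
Mcm6: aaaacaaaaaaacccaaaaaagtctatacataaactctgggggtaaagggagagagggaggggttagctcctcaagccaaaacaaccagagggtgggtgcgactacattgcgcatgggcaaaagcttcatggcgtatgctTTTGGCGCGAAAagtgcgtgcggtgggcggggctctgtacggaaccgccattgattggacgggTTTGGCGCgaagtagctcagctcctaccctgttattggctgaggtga
Cdc6: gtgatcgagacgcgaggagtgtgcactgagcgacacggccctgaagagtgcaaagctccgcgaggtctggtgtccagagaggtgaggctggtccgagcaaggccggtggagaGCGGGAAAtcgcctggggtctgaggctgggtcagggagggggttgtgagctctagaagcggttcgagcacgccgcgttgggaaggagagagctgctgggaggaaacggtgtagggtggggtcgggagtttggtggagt
Mcm10: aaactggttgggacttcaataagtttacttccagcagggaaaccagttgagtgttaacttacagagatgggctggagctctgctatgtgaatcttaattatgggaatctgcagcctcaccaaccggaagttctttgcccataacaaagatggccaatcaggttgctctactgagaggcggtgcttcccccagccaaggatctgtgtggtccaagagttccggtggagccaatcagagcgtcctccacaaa
Tyms: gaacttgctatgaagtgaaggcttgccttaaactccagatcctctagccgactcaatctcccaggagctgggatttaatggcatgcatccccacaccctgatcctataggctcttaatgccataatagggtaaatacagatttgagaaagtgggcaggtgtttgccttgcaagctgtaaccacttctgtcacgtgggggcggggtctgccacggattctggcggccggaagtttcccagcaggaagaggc

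With OSM, most replication genes had a slightly lower intensity than without it, and none differed by as much as 2-fold. At 6 h, 31 of the 40 genes (77.5%) had a log2 ratio of OSM over NS below 0, against 50.2% of all 8101 genes measured, and their median log2 ratio was -0.083, against -0.00070 for all genes. At 24 h, where 2 other arrays were compared, 32 of the 40 (80%) were below 0, against 46.6% of all 8164 genes, with a median of -0.068 against 0.011. The arrays at 6 h and at 24 h are separate, and 25 genes (62.5%) were below 0 at both times, against 26.5% of all genes, while 2 (Pola2 and Ccne1) were above 0 at both. The count at 6 h changed with the control. With the 2 NS arrays averaged to serve as control, 24 of the 40 genes were below 0 at 6 h (54.8% of all genes), with a median of -0.030. At 24 h 32 were below 0 (47.9% of all genes), with a median of -0.14. Of the 40 genes, 9 changed side at 6 h and 4 at 24 h. The averaged control holds both times, so time in culture enters these ratios. A difference over time and a high NS 6 h array cannot be told apart here.

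The count of genes past 2-fold, the threshold in the design of the series, was 0 of 40 at 6 h (0.16% of all genes in either direction) and 0 of 40 at 24 h (0.331%). Past 1.5-fold, Tyms and Rfc5 were lower with OSM at 6 h, where 0.272% of all genes were that much lower, and no gene was past 1.5-fold at 24 h (1.22% of all genes in either direction). A lower limit of 0.32 on the log2 scale was also read. Past it, 3 genes were lower at 6 h (2.57% of all genes), Tyms, Rfc5 and Pola1, and 3 others were lower at 24 h (2.87%), Tk1, Lig1 and Rpa2. No replication gene was higher with OSM by that much at 6 h (4.17% of all genes) or at 24 h (3.49%).

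**Figure D1:**
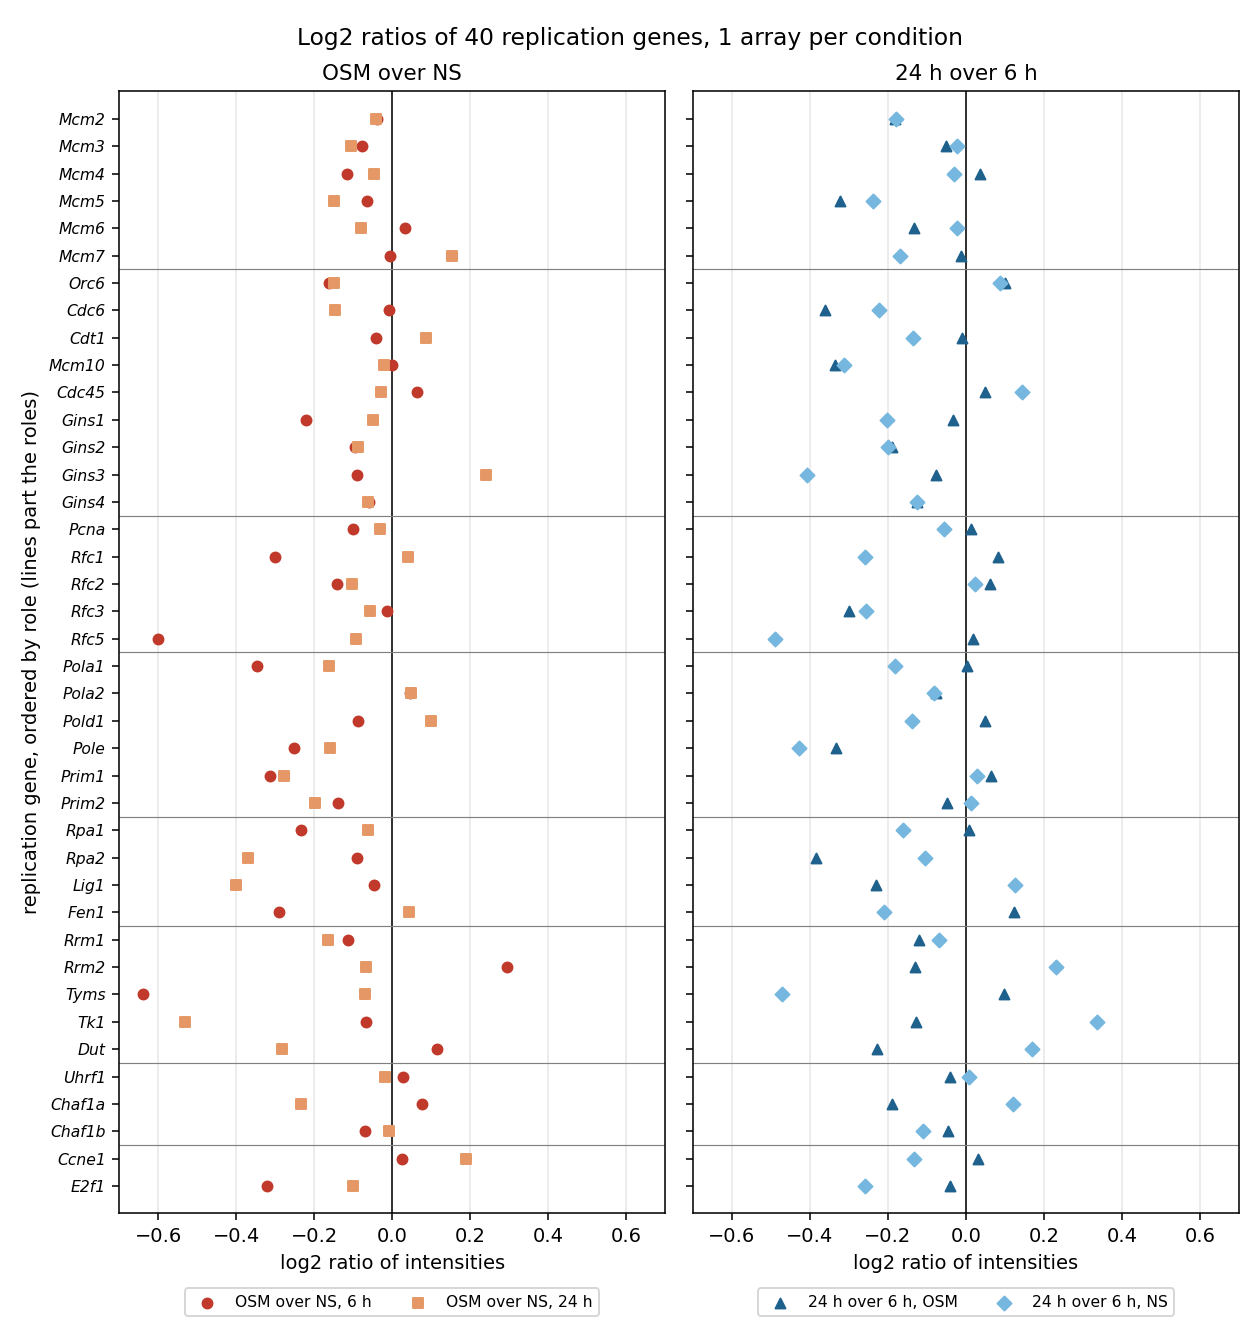
Log2 ratios of intensities (x axis) for each of the 40 measured replication genes (y axis, grouped by role), with OSM over NS at 6 h (circles) and 24 h (squares) on the left, and 24 h over 6 h in OSM (triangles) and NS (diamonds) on the right; each point is 1 array over 1 array. Points lie mostly left of 0, and the lowest are Tyms (-0.64) and Rfc5 (-0.60) with OSM at 6 h and Tk1 (-0.53) with OSM at 24 h.

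Between 6 h and 24 h in culture, the same group was on the whole lower at the later time. In OSM, 26 of the 40 genes (65%) had a lower intensity at 24 h than at 6 h, against 43.3% of all 8161 genes, with a median log2 ratio of -0.047 against 0.030. This share depended on the scaling of the arrays, since it was 77.5% (31 of 40) with quantile normalization, cyclic loess or centring, under which 50.2%, 50.3% and 50.7% of all genes were below 0. In NS, 29 of the 40 genes (72.5%) were lower at 24 h, against 46.7% of all 8198 genes, with a median of -0.13 against 0.016. In both OSM and NS, which share no array, 19 genes (47.5%) were below 0, against 29.7% of all genes, and 4 (Orc6, Cdc45, Rfc2 and Prim1) were above 0 in both, although in NS Rfc2 crossed to below 0 with cyclic loess or centring and Prim1 with centring. Past 2-fold there were 0 of 40 genes in OSM (0.27% of all genes in either direction) and 0 in NS (0.781%). Past 0.32 on the log2 scale, 5 genes were lower at 24 h in OSM (4.68% of all genes), Rpa2, Cdc6, Mcm10, Pole and Mcm5. In NS 4 were lower (5.78%), Rfc5, Tyms, Pole and Gins3, and 1 was higher (10.2%), Tk1. Each array enters a contrast with OSM and a contrast over time, so the ratios of OSM over NS and of 24 h over 6 h are not independent of each other.

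The spread of a replication gene over the 4 arrays was like that of other genes. The ratio of its highest to its lowest intensity had a median of 1.191 (1.028 for Uhrf1 to 1.558 for Tyms), against a median of 1.187 for the 7717 genes above the floor on all arrays. What differed was where the extremes lay. The NS 6 h array held the highest of the 4 intensities for 25 of the 40 genes (62.5%), against 24.6% of all genes, and the OSM 24 h array held the lowest for 21 (52.5%), against 20.4% of all genes. Relative to each gene's mean over the 4 arrays, the median replication gene lay at -0.089 on the log2 scale in OSM 24 h, -0.028 in NS 24 h, 0.0036 in OSM 6 h and 0.086 in NS 6 h. The corresponding medians of all genes lay between -0.012 and 0.014. In whole cultures, fewer cells in S phase and less mRNA of these genes per cell cannot be told apart, and differences between single culture dishes were not tested, since each condition had 1 array.

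**Figure D2:**
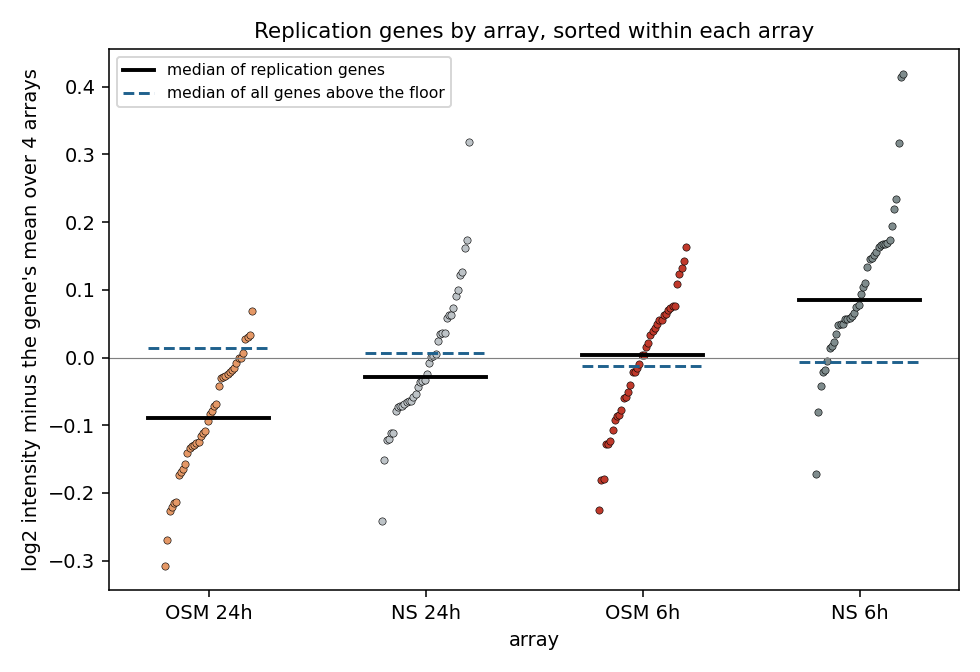
Log2 intensity minus the gene's mean over the 4 arrays (y axis) for the 40 replication genes, sorted within each array (x axis); the solid bar is their median and the dashed bar the median of the 7717 genes above the floor. The replication gene median is lowest in OSM 24 h (-0.089) and highest in NS 6 h (0.086), whereas the dashed bars stay near 0.

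**Figure D3:**
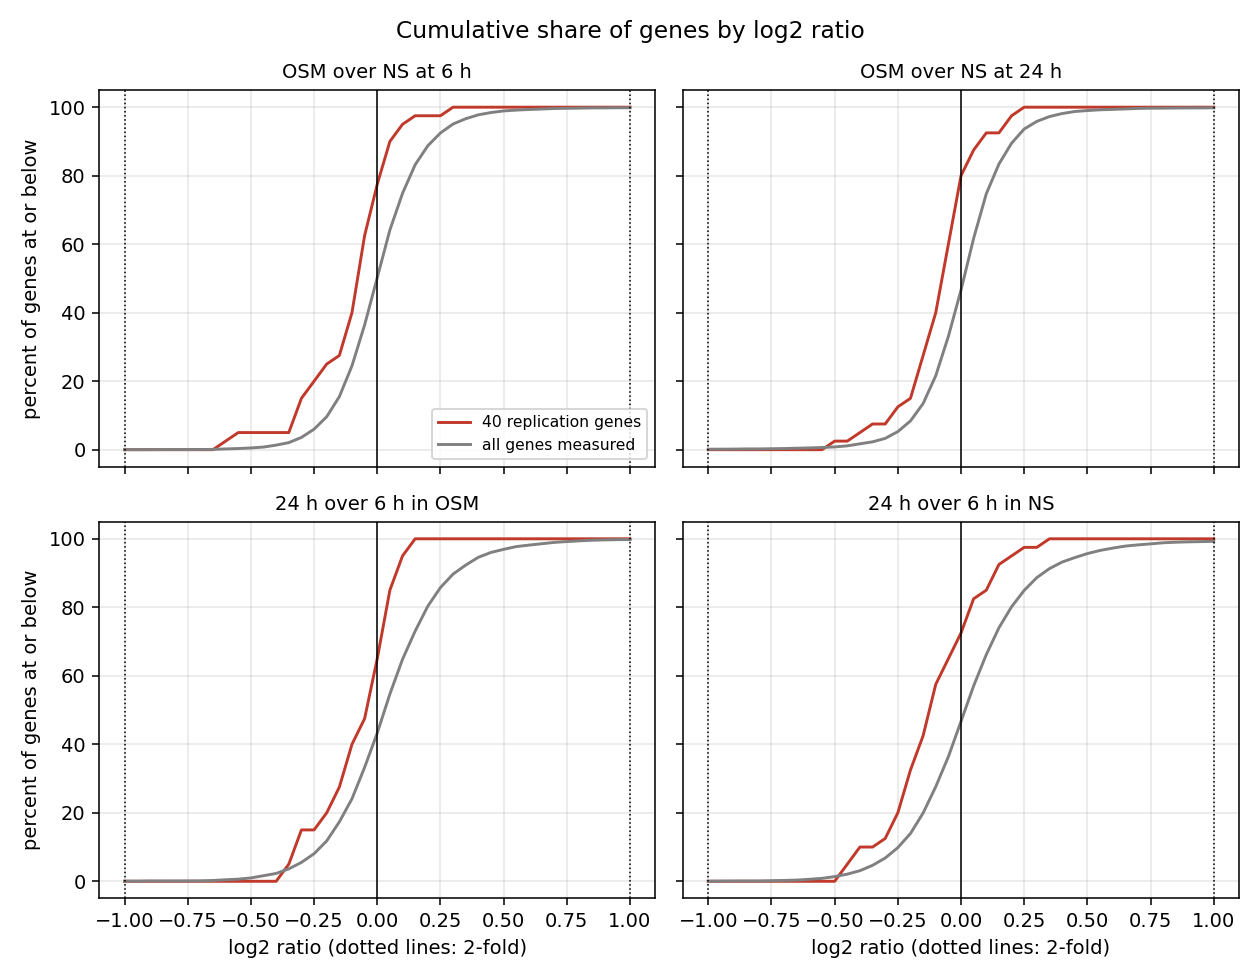
Percentage of genes at or below each log2 ratio (y axis, percent; x axis, log2 ratio) for the 40 replication genes (red) and all genes measured (grey) in each of the 4 contrasts, with dotted lines at 2-fold. At 0 the red curve reaches 77.5% and 80% for OSM over NS at 6 h and 24 h, and 65% and 72.5% for 24 h over 6 h in OSM and NS, above the grey curve in each panel.

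The 6 subunits of the MCM helicase, the ring that unwinds DNA ahead of the fork, differed little with OSM. Their log2 ratios of OSM over NS ran between -0.12 (Mcm4) and 0.032 (Mcm6) at 6 h, with 5 of 6 below 0, and between -0.15 (Mcm5) and 0.15 (Mcm7) at 24 h, again with 5 of 6 below 0. Mcm7 had intensities of 294 with OSM and 265 without at 24 h, and 297 with OSM and 298 without at 6 h, so that NS 24 h alone was low. Over time, all 6 were lower at 24 h than at 6 h in NS and 5 of 6 in OSM. The largest ratios were those of Mcm5, whose promoter carries 2 E2F matches. Its intensity was 203 with OSM and 225 without at 24 h, against 254 with OSM and 266 without at 6 h (log2 ratios of -0.32 and -0.24). Both arrays at 24 h lay below both at 6 h. Mcm6, with 3 E2F matches, had ratios over time of -0.13 in OSM and -0.022 in NS. Mcm2, with 0 matches, had -0.18 in OSM and -0.18 in NS. Mcm3, with 2 matches, had -0.050 in OSM and -0.023 in NS. Mcm7, with 2 matches in a promoter and 0 in another, had -0.013 in OSM and -0.17 in NS.

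Among the 9 measured genes of origin recognition, licensing and helicase activation, 7 were below 0 with OSM at each time. Mcm10, a scaffold that helps activate the loaded helicase, was lower at 24 h and nearly level between treatments. Its intensity was 77.8 in OSM and 79.0 in NS at 24 h, against 98.2 in OSM and 98.2 in NS at 6 h. Cdc6, the ATPase that helps to load MCM, was at 99.3 with OSM and 110.0 without at 24 h, against 127.7 with OSM and 128.5 without at 6 h (log2 ratios over time of -0.36 and -0.22). For both genes the 2 arrays at 24 h were below the 2 at 6 h.

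Cdt1, the partner of CDC6 in licensing, was nearly flat by comparison, at 205.0 with OSM and 193 without at 24 h and at 206 with OSM and 212 without at 6 h. Orc6, a subunit of the origin recognition complex, was 147 with OSM and 163 without at 24 h, and 137 with OSM and 153.5 without at 6 h (log2 ratios of OSM over NS of -0.15 and -0.16). It was lower with OSM by a like amount at both times, and slightly higher at 24 h in both treatments. Cdc45, a component of the active helicase, was 57.4 with OSM and 58.6 without at 24 h, and 55.5 with OSM and 53.1 without at 6 h.

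The 4 GINS subunits, which bind MCM together with CDC45, were all lower at 24 h than at 6 h in both treatments. Gins3 had the widest range, with intensities of 61.8 with OSM and 52.3 without at 24 h, and 65.1 with OSM and 69.4 without at 6 h. Its NS 24 h array stood apart below the other 3, which gave both the highest ratio of OSM over NS at 24 h (0.24) and a low ratio over time in NS (-0.41). Gins1, Gins2 and Gins4 had log2 ratios of OSM over NS between -0.22 and -0.049 over both times.

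The clamp and clamp loader genes were all below 0 with OSM at 6 h (5 of 5 measured, median -0.14, or 4 of 5 with quantile normalization or cyclic loess, under which Rfc3 crossed 0) and 4 of 5 were below 0 at 24 h. Over time in OSM 1 of 5 was below 0, and 3 of 5 under the other scalings, where Pcna and Rfc5 crossed 0. Rfc5, a small subunit of the RFC loader, had intensities of 55.5 with OSM and 59.2 without at 24 h, and 54.9 with OSM and 83.2 without at 6 h. The NS 6 h value stood alone above the other 3 arrays. The 1.516-fold lower value with OSM at 6 h (log2 ratio -0.60) and the 1.405-fold lower value at 24 h in NS (-0.49) both rest on that array. Rfc1, the large subunit of the loader, showed the same arrangement, at 192 with OSM and 187 without at 24 h, and at 181 with OSM and 223 without at 6 h. Pcna, the sliding clamp itself, had log2 ratios of OSM over NS of -0.033 at 24 h and -0.10 at 6 h.

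Among polymerase and primase genes, the log2 ratio of OSM over NS was below 0 for 5 of 6 at 6 h and for 4 of 6 at 24 h. Prim1, the catalytic subunit of primase, was lower with OSM at both times, at 107 with OSM against 130.0 without at 24 h and at 103 with OSM against 128 without at 6 h (log2 ratios of -0.28 and -0.31). Neither OSM array reached either NS array. Prim2, the large primase subunit, followed it with ratios of -0.20 at 24 h and -0.14 at 6 h. Pola1, the catalytic subunit of the polymerase that works with primase, was 83.5 with OSM and 93.5 without at 24 h, and 83.4 with OSM and 106 without at 6 h. Its accessory subunit Pola2 ran the other way by a small amount, at 260.3 with OSM and 252 without at 24 h, and 275 with OSM and 266 without at 6 h.

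Pole, the catalytic subunit of the leading-strand polymerase, was lower at 24 h in both treatments. Its intensity was 89.0 with OSM and 99.4 without at 24 h, against 112 with OSM and 134 without at 6 h, and both arrays at 24 h lay below both at 6 h (log2 ratios over time of -0.33 in OSM and -0.43 in NS). Pold1, the catalytic subunit of the lagging-strand polymerase, was 69.3 with OSM and 64.8 without at 24 h, and 67.1 with OSM and 71.3 without at 6 h. It had no common direction with OSM or with time.

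All 4 genes of single-strand binding and Okazaki fragment maturation were below 0 with OSM at 6 h, and 3 of 4 at 24 h. Lig1, the ligase that joins Okazaki fragments, was 119 with OSM and 157 without at 24 h, and 139.8 with OSM and 144 without at 6 h. Rpa2, the middle subunit of the single-strand binding protein, was 83.6 with OSM and 108 without at 24 h, and 109 with OSM and 116 without at 6 h. For both genes OSM 24 h was the lowest of the 4 arrays, 1.320-fold below NS 24 h for Lig1 and 1.293-fold for Rpa2. Fen1, the flap nuclease of fragment maturation, was 70.5 with OSM and 68.4 without at 24 h. At 6 h it was 64.7 with OSM and 79.2 without, and NS 6 h was its highest array. A second probe set of Fen1 stood at the floor on all 4 arrays. Averaging its probe sets would move the log2 ratio of OSM over NS at 6 h from -0.29 to -0.15.

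The nucleotide supply genes differed from each other in their pattern over the arrays, with 5 of 5 below 0 for OSM over NS at 24 h and 3 of 5 at 6 h. Tyms, which makes thymidylate, had intensities of 107 with OSM and 112 without at 24 h, and 99.9 with OSM and 156 without at 6 h. As for Rfc5, the NS 6 h array stood alone, and both the 1.558-fold lower value with OSM at 6 h (log2 ratio -0.64) and the ratio over time in NS (-0.47) rest on it. Tk1, the thymidine salvage kinase, was 105.5 with OSM and 152.5 without at 24 h, and 115 with OSM and 121 without at 6 h. Here NS 24 h was the high array, which gave the 1.445-fold lower value with OSM at 24 h (log2 ratio -0.53) and the highest ratio over time in NS (0.34). The 2 thymidylate enzymes thus had their high value on different NS arrays.

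Rrm2, the small and cell-cycle regulated subunit of ribonucleotide reductase, was 136 with OSM and 143 without at 24 h, and 149 with OSM and 122 without at 6 h. NS 6 h was its lowest array, the reverse of most replication genes, and its ratio of OSM over NS at 6 h was the highest of the group (0.30). Averaging its probe sets, of which the other stood at the floor, would lower that ratio to 0.15. Rrm1, the large subunit, was below 0 with OSM at both times (-0.17 at 24 h and -0.11 at 6 h). Dut, which removes dUTP from the nucleotide pool, was 74.2 with OSM and 90.3 without at 24 h, and 87.0 with OSM and 80.3 without at 6 h. OSM lay below NS at 24 h and above it at 6 h.

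**Figure D4:**
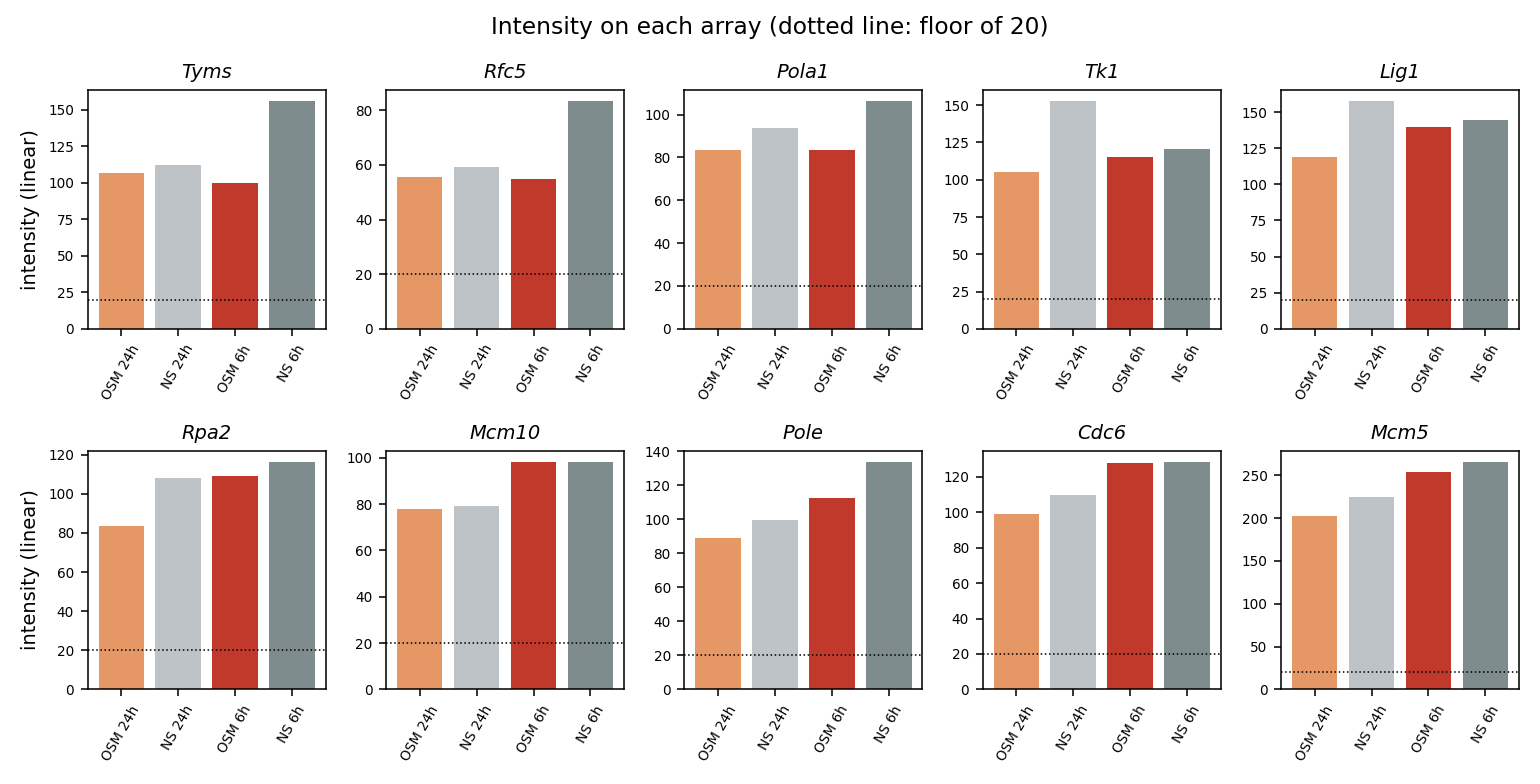
Linear intensity (y axis) on each array (x axis: OSM 24 h, NS 24 h, OSM 6 h, NS 6 h) for 10 replication genes, 1 bar per array from 0, with the floor of 20 as a dotted line. Tyms and Rfc5 stand high only in NS 6 h (156 and 83.2), Tk1 only in NS 24 h (152.5), and Mcm10, Pole, Cdc6 and Mcm5 are lower on both arrays at 24 h than on both at 6 h.

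Of the chromatin copying genes, 3 of 3 were below 0 for OSM over NS at 24 h and 1 of 3 at 6 h. Uhrf1, which couples DNA methylation to replication, had the narrowest range of all 40 genes, 1.028-fold over the 4 arrays. Chaf1a, the large subunit of the histone chaperone CAF-1, was 56.5 with OSM and 66.5 without at 24 h, and 64.5 with OSM and 61.1 without at 6 h, so that OSM 24 h was the lowest. Chaf1b, its partner subunit, had log2 ratios of OSM over NS of -0.0071 at 24 h and -0.071 at 6 h.

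Of the S-phase entry genes, Ccne1 and E2f1 had a value. Ccne1, the cyclin that drives S-phase entry with CDK2, was 41.0 with OSM and 36.0 without at 24 h, and 40.1 with OSM and 39.5 without at 6 h. E2f1, the transcription factor that activates many genes of the group, was 38.8 with OSM and 41.6 without at 24 h, and 39.9 with OSM and 49.8 without at 6 h. NS 6 h was again the highest array for E2f1, and its log2 ratios of OSM over NS were -0.10 at 24 h and -0.32 at 6 h.

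The only test with a residual was a limma fit over all 4 arrays and 8303 genes, with a term for OSM common to both times and a term for time common to both treatments. It has 1 residual degree of freedom, which is the difference between the OSM ratios at 6 h and at 24 h. A p-value here sets a change against that difference, which limma draws toward a value shared by all genes. It does not measure a spread between replicate arrays, and the difference may be purely technical. Among the 40 genes, the OSM term called 0 (Benjamini-Hochberg adjusted p under 0.05), against 20 higher (0.241%) and 0 lower (0%) of all genes. At an unadjusted p under 0.05 the OSM term held 0 higher and 8 lower replication genes, against 557 higher (6.71%) and 385 lower (4.64%) of all genes. The 8 lower genes were Prim1, Pola1, Pole, Rfc5, Tyms, Tk1, Rpa2 and E2f1. The lowest adjusted p was that of Prim1 (limma log2 fold change -0.29, SE 0.0746, adjusted p = 0.240). The fitted OSM log2 fold change was below 0 for 31 of 40 genes, with a median of -0.088, against 49.1% and a median of 0.0029 for all genes. With 1 array left out, the OSM term was fitted alone, so the values that follow mix OSM with time in culture. Without NS 6 h, where OSM at both times was set against NS 24 h, the median was -0.026, with 24 of 40 below 0. Without OSM 24 h, where OSM 6 h was set against NS at both times, it was -0.029, with 23 of 40 below 0. Without OSM 6 h it was -0.14, with 32 of 40 below 0. These fits cannot show how far the OSM term rests on a single array.

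The time term called 2 replication genes, both of which fell at 24 h, against 483 higher (5.82%) and 229 lower (2.76%) of all genes. Pole fell by 0.38 on the log2 scale (SE 0.0765, adjusted p = 0.0354 by limma) and Mcm10 fell by 0.32 (SE 0.0744, adjusted p = 0.0478). For both, 2 of 2 arrays at 24 h were below 2 of 2 at 6 h. A second probe set of Pole stood at the floor on every array. The calls depended on the processing. Over all genes the time term called 1 higher and 0 lower with repeated quantile normalization, and 0 in either direction without the OSM term, with no filter on low values or with any 1 array left out. Pole and Mcm10 were each called in 6 of 14 settings, with adjusted p values between 0.00976 and 0.461 for Pole and between 0.0267 and 0.392 for Mcm10, and neither was called with any 1 array left out. At an unadjusted p under 0.05 there were 0 higher and 9 lower replication genes in the time term, against 1425 (17.2%) and 896 (10.8%) of all genes. The 7 lower genes besides Pole and Mcm10 were Mcm2, Mcm5, Cdc6, Gins2, Gins3, Rfc3 and Rpa2. In this term 33 of 40 genes were below 0, with a median of -0.078, against 44.5% and a median of 0.022 for all genes. With 1 array left out, the time term was fitted alone, which mixes time with OSM. In such fits the median was -0.034 without NS 6 h, with 24 of 40 below 0, and -0.12 without NS 24 h, with 35 of 40 below 0.

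Other genes of the replication machinery, outside the list of 43, were read from lists of the same kind. In the OSM term limma called 0 of these genes after adjustment. At an unadjusted p under 0.05 it held 1 lower licensing gene, 1 higher fork gene, and 1 higher and 1 lower nucleotide supply gene. Of all genes, 6.71% were higher and 4.64% lower at that limit. In the time term, 2.76% of all genes fell and 5.82% rose after adjustment. In that term, 2 of 15 other licensing and firing genes fell at 24 h and none rose. Recql4, a helicase needed for origin firing, was 28.5 in OSM and 27.4 in NS at 24 h, against 47.4 in OSM and 45.8 in NS at 6 h (limma log2 fold change -0.74, SE 0.0743, adjusted p = 0.0103). This was a larger difference over time than that of any of the 40 genes. Orc5, a subunit of the origin recognition complex, also fell (-0.44, adjusted p = 0.0247). Of 18 other fork genes, 2 fell, Wdhd1, a polymerase-binding fork factor (-0.46, adjusted p = 0.0236), and Pole3, an accessory subunit of the Pole enzyme (-0.33, adjusted p = 0.0495), and none rose. Of 10 other nucleotide supply genes, 3 fell, Shmt1, Gart and Nme1, and none rose. Of the 9 other chromatin assembly genes, 0 passed after adjustment and 1 was lower at an unadjusted p under 0.05 in the limma time term (10.8% of all genes). The 7 calls over time also depended on the processing. Orc5, Wdhd1 and Shmt1 were called in 7 of 14 settings and Recql4, Pole3, Gart and Nme1 in 6, and none of the 7 was called with repeated quantile normalization or with any 1 array left out.

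With OSM these other lists did not lie uniformly below 0. The fork list had 8 of 18 genes below 0 at 6 h and 8 of 18 at 24 h, and its highest gene was Pold4, the smallest polymerase delta subunit, with 77.4 in OSM and 53.1 in NS at 24 h and 63.6 in OSM and 51.8 in NS at 6 h (log2 ratios of 0.54 and 0.30). The licensing and firing list had 6 of 15 below 0 at 24 h and 10 of 15 at 6 h. The nucleotide supply list had 3 of 10 below 0 at 24 h (median 0.064) and 5 of 10 at 6 h (median -0.022). By contrast, all 9 other chromatin assembly genes were below 0 with OSM at 24 h, with a median of -0.096, and 5 of 9 at 6 h. The shares of all genes below 0 were 50.2% at 6 h and 46.6% at 24 h. Whether the 40 genes differ from these lists was not tested.

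The genes at the ends of these lists varied in pattern. Tipin, a fork protection factor, had the lowest ratio of the fork list with OSM at 6 h (-0.43) and the highest over time in OSM (0.45). Its intensity was 51.5 in OSM and 53.4 in NS at 24 h, and 37.7 in OSM and 50.7 in NS at 6 h, so that OSM 6 h alone was low. Its partner Timeless was the lowest with OSM at 24 h (-0.22), and over time in NS the ends were Rnaseh2b, a subunit of ribonuclease H2 (-0.43), and Top1, a topoisomerase (0.12). In the licensing and firing list, Ticrr, a factor that helps recruit CDC45, was 65.4 in OSM and 69.6 in NS at 24 h, and 64.9 in OSM and 82.5 in NS at 6 h, where it had the lowest ratio with OSM (-0.35). NS 6 h was again the high array. The other ends of that list with OSM were Mcm8, an MCM-related helicase (-0.18), and Cdc7, the kinase of origin firing (0.15), at 24 h. Donson, near the floor on every array, was the highest with OSM at 6 h (0.18) and over time in NS (0.17). Over time in OSM the highest was Cdc7 (0.16).

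In the nucleotide supply list, Samhd1, which degrades dNTPs, was the lowest with OSM at both times (-0.27 at 24 h and -0.16 at 6 h) and Shmt2, a folate enzyme of mitochondria, the highest (0.26 and 0.25). Over time the highest were Dtymk, the thymidylate kinase, in OSM (-0.043) and Samhd1 in NS (0.0071), and the lowest were Gart in OSM (-0.38) and Shmt1 in NS (-0.51). In the chromatin assembly list the lowest with OSM were the histone chaperone Nasp at 24 h (-0.21) and Rbbp4 at 6 h (-0.20), and the highest Rbbp7 at 24 h (-0.057) and the chaperone Asf1b at 6 h (0.10). Over time its ends were Asf1b (-0.26) and Dnmt1 (0.0038) in OSM, and Asf1a (-0.20) and Slbp (0.10) in NS.

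Among 28 measured regulators of G1 and S phase, the time term had 1 gene that rose and 2 that fell, against 5.82% and 2.76% of all genes. Cdkn1a, which encodes the CDK inhibitor p21, rose at 24 h, with 111.5 in OSM and 85.8 in NS at 24 h against 73.3 in OSM and 66.9 in NS at 6 h (limma log2 fold change 0.48, SE 0.0886, adjusted p = 0.0293). Tfdp2, a dimerization partner of E2F proteins, and Fbxo5, an inhibitor of the anaphase-promoting complex, fell (-0.35 and -0.42, adjusted p = 0.0399 and 0.0387). Cdkn1a was called in 7 of 14 settings and Tfdp2 and Fbxo5 in 6, and none of the 3 with repeated quantile normalization or with any 1 array left out. Cdkn2b, which encodes the CDK inhibitor p15, stood out on 1 array, with 109 in OSM and 152 in NS at 24 h and 96.7 in OSM and 100 in NS at 6 h. NS 24 h was its high array, as it was for Tk1. Cdkn2b had the lowest ratio of its list with OSM at 24 h (-0.49), and Cdkn1a the highest (0.38). E2f6, a repressive E2F family member near the floor, was 44.7 in OSM and 37.9 in NS at 24 h, and 27.2 in OSM and 36.7 in NS at 6 h, and its low value was in OSM 6 h. E2f5, another E2F family member, had the highest ratio of its list with OSM at 6 h (0.39), with 58.0 in OSM and 57.6 in NS at 24 h, and 51.4 in OSM and 39.3 in NS at 6 h.

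The 17 measured genes of G2 and mitosis had a different order over time. They were higher at 24 h than at 6 h for 14 of 17 in OSM (median log2 ratio 0.10, with 12, 12 and 11 of 17 under quantile normalization, cyclic loess and centring) and for 15 of 17 in NS (median 0.12), whereas the replication gene medians were below 0. Of all genes, 56.7% in OSM and 53.3% in NS were higher at 24 h, with medians of 0.030 and 0.016. Ccnb2, a mitotic cyclin, rose at 24 h, with 188 in OSM and 209.5 in NS at 24 h against 155 in OSM and 157 in NS at 6 h (limma log2 fold change 0.35, SE 0.0791, adjusted p = 0.0472). It was called in 5 of 14 settings, and not with repeated quantile normalization or with any 1 array left out. With OSM the mitotic genes lay on the same side as the replication genes, with 13 of 17 below 0 at each time and medians of -0.13 at 24 h and -0.070 at 6 h. The shares of all genes below 0 were 46.6% at 24 h and 50.2% at 6 h, with medians of 0.011 and -0.00070. Mki67, the common proliferation marker, had the lowest ratio of its list at both times, with 368 in OSM and 436 in NS at 24 h and 343 in OSM and 419 in NS at 6 h, and neither OSM array reached either NS array. The highest ratios with OSM were those of Cdc25c, a mitotic phosphatase, at 24 h (0.078) and Aurka, a mitotic kinase, at 6 h (0.20), and the lowest over time were those of Cdc20 in OSM (-0.14) and Cdc25c in NS (-0.038).

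**Figure D5:**
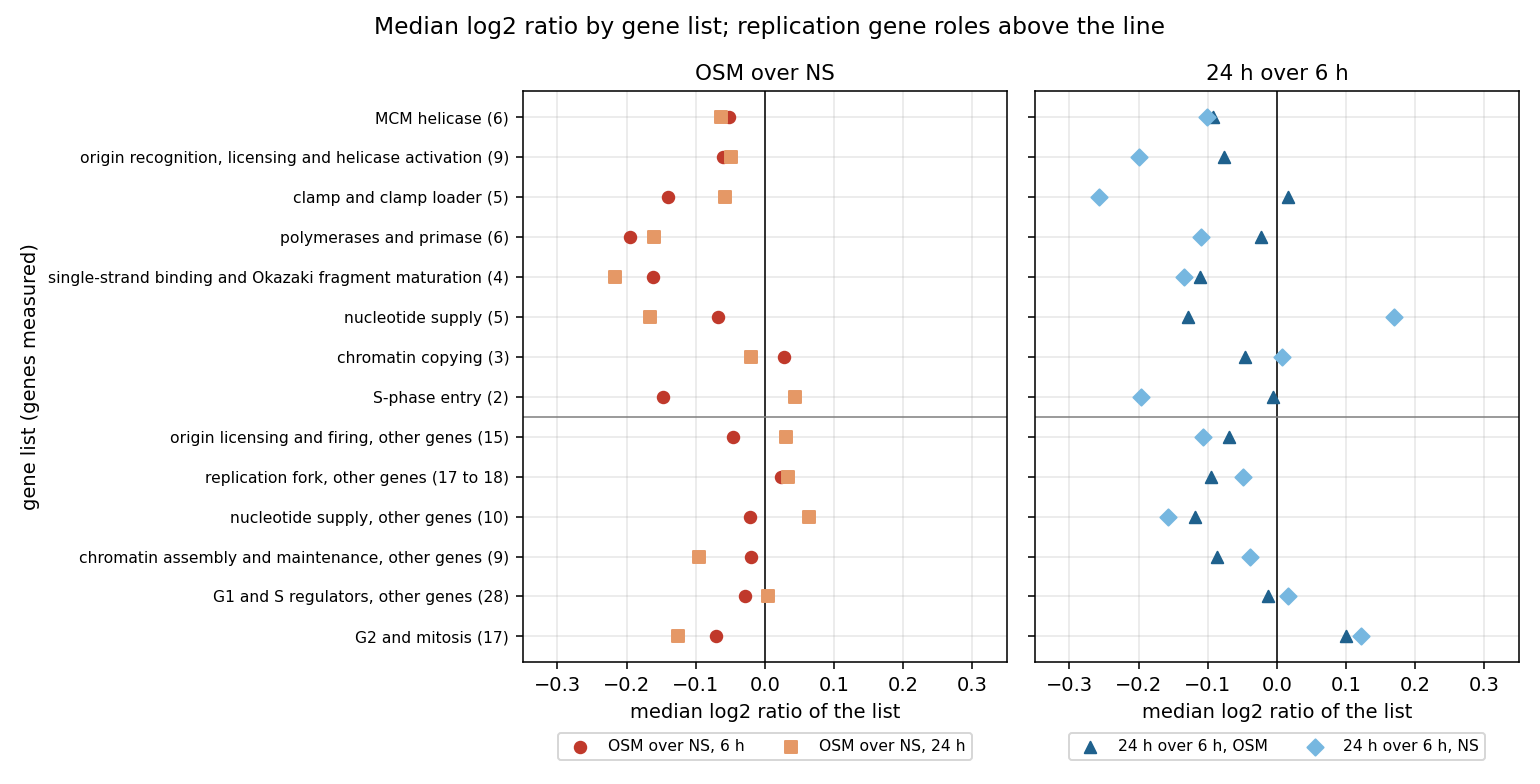
Median log2 ratio (x axis) of each gene list (y axis, number of genes measured in brackets), with the roles of the replication genes above the line and other lists below it, for OSM over NS at 6 h and 24 h (left) and 24 h over 6 h in OSM and NS (right). The G2 and mitosis list lies at 0.10 in OSM and 0.12 in NS over time, whereas most replication roles lie below 0.

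Genes with an E2F form in the promoter had lower medians than those without in 3 of the 4 contrasts and a higher one for OSM over NS at 6 h. The differences were small, and for OSM over NS at 24 h the medians were nearly level. The contrasts share arrays, and no difference was tested. With a form (12 genes with both a promoter and ratios) and without (21 genes), the median log2 ratios of OSM over NS were -0.069 and -0.066 at 24 h and -0.044 and -0.092 at 6 h. For 24 h over 6 h they were -0.063 and -0.040 in OSM and -0.15 and -0.11 in NS. The 5 genes printed above show the range. Mcm5 and Cdc6, with E2F forms, and Mcm10, without one in this window, were lower at 24 h on both arrays, Mcm6 had the most matches and log2 ratios over time of -0.13 and -0.022, and Tyms, without a match, was high on NS 6 h alone. A match is a run of letters and not a measured binding site.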

How the data were processed

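The deposited values are linear probe set intensities of 4 Affymetrix arrays, 1 per condition. The authors' processing notes name Affymetrix Expression Console, while how these intensities were summarised and normalized is not stated in the sources used here. The table has a floor of 20, at which between 72.5% and 73% of the 41345 probe sets stood on each array. The paper linked to the series does not describe these arrays.

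Log2 ratios were taken of 1 array over 1 array, and have no p-value. Symbols came from the platform annotation, with 1 symbol per probe set and, per gene, the probe set with the highest mean. Counts used a 2-fold threshold, with 1.5-fold and 0.32 on the log2 scale beside it. The fit was limma 3.58.1 (R 4.3.3, two-sided, OSM and time terms, 8303 genes that 1 or more arrays held above the floor, 5.49 prior degrees of freedom) and was tested on simulated data. Alternatives changed the normalization, probe set rule, floor, filter, control and fit. The members and lists were chosen with earlier results of these data known. All 43 genes were accounted for, and per-array values were given for the 5 highest and 5 lowest ratios per contrast. Genes of other lists were named where past 1.5-fold, where they had the highest or lowest ratio of their list or, chosen after their values were seen, where limma called them. The number of arrays limits the precision.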

Additional observations from a re-analysis of the deposited data

Results flagged for a closer look

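Dut, the dUTP-removing enzyme, had opposite directions over time in the 2 treatments. Its log2 ratio of 24 h over 6 h was -0.23 in OSM and 0.17 in NS, each past 1.1-fold. With 1 array per condition, the difference between the treatments was not tested. A second probe set of Dut stood at the floor on all 4 arrays.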

How the results depend on the processing

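No replication gene passed 2-fold in any contrast under any other normalization, probe set rule, filter, floor or control. At lower thresholds the counts were 2 at 1.5-fold for OSM over NS at 6 h and, past 0.32 on the log2 scale, 3 at 6 h, 3 at 24 h, 5 for 24 h over 6 h in OSM and 5 in NS. The group medians stayed below 0 and moved by less than the prior SD of the fit (0.0808 on the log2 scale). They ran between -0.10 and -0.030 for OSM over NS at 6 h, between -0.14 and -0.062 at 24 h, between -0.080 and -0.047 for 24 h over 6 h in OSM, and between -0.17 and -0.11 in NS. With the NS arrays averaged as control, 0 genes were past 1.5-fold at 6 h.

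The OSM term of limma called 0 replication genes in all 14 settings. The time term, which called 2, called 0 with repeated quantile normalization, 1 with cyclic loess (Pole), 5 when each array was centred on probe sets past the floor (Mcm5, Cdc6, Mcm10, Rfc3 and Pole), 1 with probe sets averaged per gene (Mcm10), 4 with a floor of 40 and 4 with an intensity trend (each Mcm5, Cdc6, Mcm10 and Pole), 0 with no filter on low values, where most genes stand at the floor and the variance prior is unreliable, and 0 without the OSM term. With OSM 24 h, NS 24 h, OSM 6 h or NS 6 h left out, the count ranged from 0 to 0; the lone array of a group is then assumed to vary like the others. With an array left out, the time term was fitted without the OSM term, so these fits also mix time with OSM. The cause of these changes was not tested. Of 1037 values for single genes under an alternative, 983 moved by no more than the prior SD, 54 moved further, and 42 lay on the other side of 0. No paired analysis was possible because the labels give no replicate numbers and each condition has 1 array.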
